A study of Mus musculus with 6 samples.

Results

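The 6 genes described here, Tbata, Slc1a1, Synpo, Kank1, Gpr153 and Phldb1, were selected on measured values, because their RNA was much lower in GDC-0449-treated than in DMSO-treated mouse medulloblastoma cells. They are 6 of 12052 genes that could be tested, out of 30584 gene symbols on the array. They are covered by 16 of its 45281 probes, of which 9 were detected on enough arrays to be tested. The values that chose them are those of the comparison of GDC-0449 with DMSO, so that comparison is given as a description without a test. The groups were SmoWT-MB cells given GDC-0449 for 6 h, SmoWT-MB cells given JQ1 for 6 h and SmoWT-MB cells given DMSO, the solvent, for 6 h, with 2 Illumina bead arrays of total RNA in each. All 3 groups are of the same Ptch-deficient line, so loss of Ptch is shared by the control. Concentrations are not given in the sources used here. Nothing in the labels says that replicate arrays hold RNA of separate cultures, so a p-value reflects only how far these arrays scatter, and that scatter may be technical.

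In hedgehog signalling, the receptor Ptch1 holds the membrane protein Smoothened in check until a ligand binds, and active Smoothened lets the GLI transcription factors switch on genes such as Ptch1 and Hhip. In the developing cerebellum, Sonic hedgehog drives the division of granule neuron precursors, and loss of Ptch1 in these cells can give rise to medulloblastoma. GDC-0449, also called vismodegib, inhibits Smoothened. JQ1 occupies the bromodomains of the BET proteins, which read acetylated histones and promote transcription.

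The arrays detected between 15125 and 16466 probes each. Their mean intensity before normalization was 305 and 306 with GDC-0449, 303 and 313 with JQ1, and 408 and 344 with DMSO. Values below are log2 intensities after background correction and quantile normalization unless called raw, and a change is the difference of group means in log2 units with its standard error (SE). Quantile normalization gives every array the same distribution. When arrays were scaled by their medians instead, the median change over all genes was -0.206 with GDC-0449 and -0.297 with JQ1, against 0.0133 and 0.00211 under quantile normalization. The calls against DMSO then split into 356 higher and 3232 lower with GDC-0449, in place of 1041 and 1157, and into 1497 higher and 5702 lower with JQ1, in place of 3419 and 3610. Those between JQ1 and GDC-0449 split into 2296 higher and 3734 lower, in place of 3196 and 3378. A bulk measurement cannot tell fewer cells of a type from less RNA per cell.

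Markers of the granule neuron lineage were present in part. Of 13 such genes, 7 could be tested, among them Zic1, Zic2 and Barhl1, while Atoh1 and Pax6 were detected on no array. With GDC-0449, 5 of the 7 rose, with Barhl1 up by 1.53 (SE 0.09, limma adjusted p = 7.68e-05), beside 8.64% of all tested genes called higher. With JQ1 all 7 passed, 5 lower and 2 higher, beside 58.3% of all tested genes called, with Barhl1 at -0.77 (SE 0.09, limma adjusted p = 0.000121) and Cntn2 at -1.13 (SE 0.09, limma adjusted p = 1.89e-05). The summed raw intensity of all the list's probes was 9769 to 10010 with GDC-0449, 5818 to 6133 with JQ1 and 7913 to 9739 with DMSO. Of 9 astrocyte markers, 5 were on no array, Gfap and Aqp4 among them. The summed astrocyte intensity was 4855 to 4906 with GDC-0449, 2475 to 2704 with JQ1 and 6037 to 6393 with DMSO, before normalization, which leaves in the higher mean intensity of the DMSO arrays. By limma none of the 4 tested astrocyte markers passed with GDC-0449, with 1 at an unadjusted p under 0.05 and a median change of 0.12. Of these 4 astrocyte markers, 3 fell with JQ1, beside 30% of all tested genes called lower. Of 10 oligodendrocyte markers, 6 were on no array, and their sums were 1465 to 1512 with GDC-0449, 1165 to 1166 with JQ1 and 1598 to 1831 with DMSO. Of the 4 tested, none passed by limma with GDC-0449, also at an unadjusted p under 0.05. Of these 4 oligodendrocyte markers, 3 fell with JQ1, again beside 30% of all tested genes called lower. On no array were also 7 of 8 microglia markers, 5 of 7 endothelial markers and 6 of 8 fibroblast markers. The summed fibroblast intensity was 1302 to 1383 with GDC-0449, 827 to 847 with JQ1 and 1441 to 1510 with DMSO. Of the 2 fibroblast markers tested, Thy1, which neurons also express, was detected on all 6 arrays and fell by 1.53 with JQ1 (SE 0.10, limma adjusted p = 7.64e-06). Pdgfra fell by 0.62 with GDC-0449 (SE 0.10, limma adjusted p = 0.00638) and was at least 2.72-fold lower with JQ1, where no array detected it (limma adjusted p = 1.24e-06). Of 9 Purkinje and mature neuron markers, 4 were on no array and 3 could be tested. With GDC-0449 1 of the 3 rose, Syt1 by 0.45 (SE 0.10, limma adjusted p = 0.0189), beside 8.64% of all tested genes called higher. With JQ1 2 rose and 1 fell, beside 58.3% of all tested genes called. The part of all these markers in the results on the 6 genes was not tested.

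Tbata, a gene known from thymus, brain and testis and deposited here under its older name 1700021K02Rik, had the largest fall of all tested genes with GDC-0449. Its brightest probe read 9.0 and 8.98 with GDC-0449, 8.61 and 8.67 with JQ1, and 11.95 and 11.83 with DMSO. Both compounds left the gene well detected, and no treated array came near a DMSO array. In raw intensity the probe read 505 and 512 with GDC-0449, 355 and 386 with JQ1, and 5039 and 3860 with DMSO. The change with GDC-0449 was -2.90 (SE 0.09), which is 7.45-fold lower. With JQ1 Tbata fell by 3.24 (SE 0.09, 9.48-fold lower, limma adjusted p = 3.98e-07).

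Slc1a1 encodes the neuronal glutamate and cysteine transporter also called EAAC1 or EAAT3, and of the 6 it was the gene on which the compounds differed most. It read 5.20 and 5.15 with GDC-0449, 7.44 and 7.35 with JQ1, and 7.34 and 7.55 with DMSO. On neither GDC-0449 array was the probe detected, with detection p-values of 0.0107 and 0.0203, while it was detected on all arrays of the other groups. The JQ1 and DMSO arrays overlapped. Raw intensities were 66.2 and 67.4 with GDC-0449, 171 and 170 with JQ1, and 245 and 232 with DMSO. The group means were 5.17 with GDC-0449 and 7.45 with DMSO, and with the undetected values raised to the lowest detected signal of their arrays Slc1a1 was at least 4.65-fold lower with GDC-0449. The change with JQ1 was -0.05, with a 95% interval from -0.29 to 0.18 (limma adjusted p = 0.687). With arrays scaled by their medians it was -0.42 (adjusted p = 0.00874), which passed the test, where the median change of all genes was itself -0.297.

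Synpo encodes synaptopodin, an actin-associated protein of dendritic spines and kidney podocytes. It read 7.0 and 6.76 with GDC-0449, 7.15 and 7.02 with JQ1, and 9.08 and 9.09 with DMSO. The treated arrays of both compounds lay close together and far below the DMSO arrays. The change with GDC-0449 was -2.20 (SE 0.11, 4.61-fold lower). With JQ1 Synpo fell by 2.00 (SE 0.11, 4.00-fold lower, limma adjusted p = 2.97e-06).

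Kank1 and Phldb1 encode scaffold proteins of the cell cortex that link focal adhesions to microtubules. Kank1 read 5.81 and 5.69 with GDC-0449, 6.40 and 6.84 with JQ1, and 7.54 and 7.72 with DMSO. The GDC-0449 arrays were just above the lowest detected signals of those arrays, 5.21 and 5.25, and the JQ1 arrays lay between the other groups without overlap. The change with GDC-0449 was -1.88 (SE 0.15, 3.67-fold lower), and with JQ1 Kank1 fell by 1.01 (SE 0.15, 2.01-fold lower, limma adjusted p = 0.000486). Phldb1, also called LL5 alpha, read 6.68 and 6.69 with GDC-0449, 7.21 and 7.20 with JQ1, and 8.40 and 8.50 with DMSO. It too was intermediate with JQ1 and did not overlap between groups. The change with GDC-0449 was -1.77 (SE 0.09, 3.41-fold lower), and with JQ1 Phldb1 fell by 1.25 (SE 0.09, 2.37-fold lower, limma adjusted p = 1.03e-05).

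Gpr153 encodes an orphan G protein-coupled receptor and has a single probe. It read 7.16 and 7.31 with GDC-0449, 8.71 and 8.59 with JQ1, and 9.08 and 9.01 with DMSO. The JQ1 arrays were slightly below the DMSO arrays, and the GDC-0449 arrays were far below both. The change with GDC-0449 was -1.81 (SE 0.10, 3.51-fold lower). With JQ1 Gpr153 fell by 0.39 (SE 0.10, 1.31-fold lower, limma adjusted p = 0.00906), a call that was lost without JQ1 array 2 (-0.33, adjusted p = 0.0593) and without DMSO array 1 (-0.35, adjusted p = 0.0503).

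**Figure D1:**
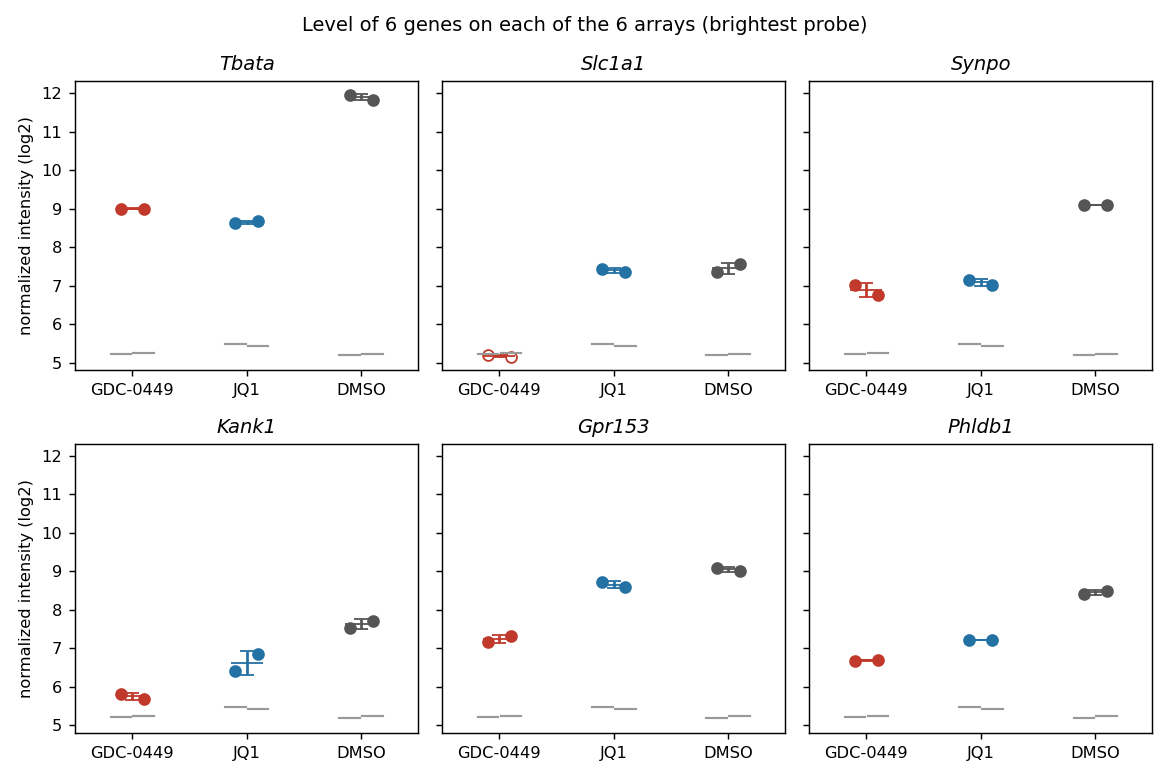
Log2 normalized intensity (vertical axis) of the brightest probe of each gene on every array, with GDC-0449, JQ1 and DMSO from left to right; bars give the mean and SD of 2 arrays, grey dashes the lowest detected signal of an array, and open points arrays on which the probe was not detected. All 6 genes lie lower with GDC-0449 than with DMSO, while Slc1a1 overlaps between JQ1 and DMSO.

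With GDC-0449 all 6 genes were lower, as their choice requires, and their median change was -2.04, beside 18.2% of all tested genes called, 9.6% called lower and 0.647% at least 2-fold lower. None of the 6 overlapped between GDC-0449 and DMSO, where 29.6% of all tested genes were lower without overlap and 61.7% did not overlap in either direction. With JQ1, 5 of the 6 fell past the threshold and Slc1a1 did not, beside 30% of all tested genes called lower, 28.4% higher and 58.3% in either direction. The median change of the 6 with JQ1 was -1.13, against 0.00211 over all tested genes. The arrays of 5 of the 6 did not overlap between JQ1 and DMSO, where 40.1% of all tested genes were lower without overlap and 79.7% did not overlap in either direction. Of the 6, Tbata, Synpo, Kank1 and Phldb1 were at least 2-fold lower with JQ1, as were 6.94% of all tested genes. The JQ1 arrays had no part in choosing the genes, but both comparisons use the same DMSO arrays.

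Set directly against GDC-0449, JQ1 left 4 of the 6 genes higher, 1 lower and 1 not called, beside 54.5% of all tested genes called, 26.5% higher and 28% lower. This comparison shares the GDC-0449 arrays with the values that chose the genes. Slc1a1 was at least 4.49-fold higher with JQ1 (7.39 with JQ1 against 5.17 with GDC-0449, limma adjusted p = 1.90e-06). Gpr153 was higher by 1.42 (SE 0.10, 2.68-fold, adjusted p = 1.08e-05), and Kank1 by 0.87 (SE 0.15, adjusted p = 0.00116). Synpo differed by 0.21, with a 95% interval from -0.05 to 0.46 (limma adjusted p = 0.145), though its arrays did not overlap, as was so for 78% of all tested genes, 39% with the JQ1 arrays lower. Tbata was lower with JQ1 by a change of -0.35 (limma adjusted p = 0.0116), and this call was lost without GDC-0449 array 1 (-0.34, adjusted p = 0.0501) and without JQ1 array 1 (-0.32, adjusted p = 0.062).

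For Tbata and Phldb1 several probes could be tested on their own, with p-values adjusted over 17026 probes. The second Tbata probe changed by -2.29 with GDC-0449 and by -2.96 with JQ1 (limma adjusted p = 1.14e-06), and it was lower with JQ1 than with GDC-0449 by a change of -0.67 (adjusted p = 0.000717). The dimmest Tbata probe, detected on 1 GDC-0449 array, 1 JQ1 array and 2 DMSO arrays, changed by -1.23 and -1.10, and its difference between the compounds was 0.13 (adjusted p = 0.73). For Phldb1 the probes did not give the same answer on the compounds. The brighter one was higher with JQ1 than with GDC-0449 by 0.52 (SE 0.09, limma adjusted p = 0.00122 over all genes), while the other, almost as bright, differed by 0.18 with a 95% interval from -0.06 to 0.42 (limma adjusted p = 0.193). Against DMSO that second probe changed by -1.44 with GDC-0449 and by -1.26 with JQ1 (limma adjusted p = 2.91e-05). Of the 7 untested probes, 2 belong to Slc1a1, 1 to Synpo, 2 to Kank1 and 2 to Phldb1, and all were detected on no array.

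**Figure D2:**
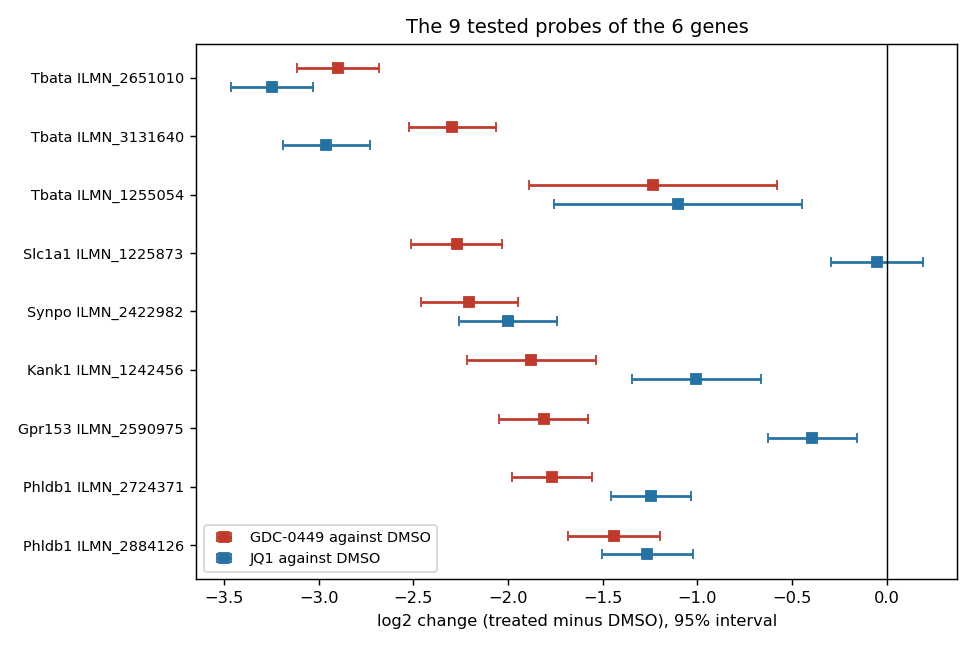
Log2 change against DMSO (horizontal axis) of each of the 9 tested probes, with points for GDC-0449 and for JQ1 and lines for the 95% interval. Every probe lies below 0 with GDC-0449, and with JQ1 only the interval of the Slc1a1 probe crosses 0.

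By size of fall with GDC-0449 the genes held places 1, 2, 3, 6, 9 and 11 among all tested genes. Others at least as low as Phldb1 included Sox18 (-1.97), the hedgehog-binding inhibitor Hhip (-1.94), D630003M21Rik (-1.86) and the hedgehog receptor Ptch1 (-1.84). Those just beyond Phldb1 included Prm1 (-1.73) and Angptl2 (-1.69). With JQ1 the changes were -0.88 for Sox18, -1.55 for Hhip, -2.79 for D630003M21Rik, -1.71 for Ptch1, -1.78 for Prm1 and -0.48 for Angptl2. D630003M21Rik was detected on 1 of 2 JQ1 arrays.

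Likeness of pattern was measured as the root mean square difference, in log2 units over the 6 arrays, between deviations of genes from their own means; it includes the arrays that chose the genes and is a description. Distances that involve Slc1a1 rest partly on signals not detected with GDC-0449. Among the 3 genes nearest to each, those for Synpo were Ptch1 at 0.16, Hhip at 0.22 and Prm1 at 0.23. Those for Gpr153 included Angptl2 at 0.10 and Ngfr at 0.19, and those for Slc1a1 included Pdgfa at 0.30 and Fosl2 at 0.33. Those for Kank1 included Sox18 at 0.19, and those for Phldb1 included Hhip at 0.14 and Ung at 0.19. The other nearest genes include Lama3 for Kank1 and Slc7a11 and Lrfn2 for Tbata, whose distances are not given because their probes were detected on no JQ1 array. Those of Lama3 and Slc7a11 were detected on no GDC-0449 array either. Among the 6 themselves, Kank1 and Phldb1 were closest at 0.20 and Tbata and Slc1a1 farthest apart at 1.39.

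Of 28 genes of the hedgehog pathway and its response, 17 could be tested, and Gli1 was among the 11 detected on no array. With GDC-0449, 9 of the 17 fell and none rose, with a median of -0.49 against 0.0133 over all tested genes. The shares of all tested genes were 9.6% lower and 8.64% higher. With JQ1, 10 fell and 2 rose, with a median of -0.36, beside 30% lower and 28.4% higher of all tested genes. Of the 9 falls with GDC-0449, Bcl2 lost its call under 7 of 21 alternatives and Sfrp1 under 2. Of the 10 falls with JQ1, Gli3 lost its call under 8 of 21 alternatives and Smo under 7. The cell cycle kinase Cdk6 fell by 1.23 with GDC-0449 (SE 0.09, limma adjusted p = 0.000233) and changed by -1.47 with JQ1 (SE 0.09, adjusted p = 5.35e-06). The 2 that rose with JQ1 were the co-receptor Cdon, by 1.36 (SE 0.12, limma adjusted p = 3.64e-05), and the growth factor Igf2. Igf2 rose by 0.25 (SE 0.09, limma adjusted p = 0.0371), a call that was kept under only 6 of 21 alternatives. The sign of Igf2 turned when arrays were scaled by their medians (-0.06, adjusted p = 0.691).

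**Figure D3:**
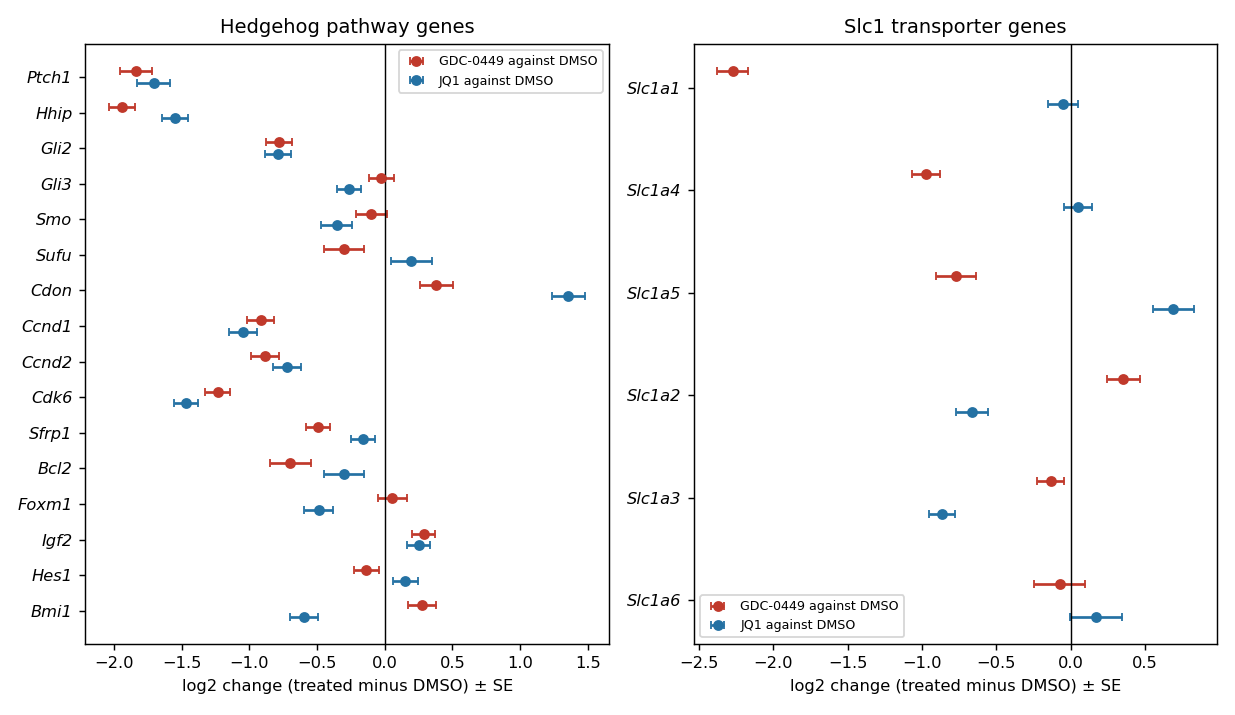
Log2 change against DMSO (horizontal axis) with GDC-0449 and with JQ1 for tested hedgehog genes on the left and for the Slc1 transporters on the right; lines give the SE. Slc1a1 lies far lower with GDC-0449 than with JQ1, while Slc1a2 and Slc1a3 lie lower with JQ1.

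Among glutamate and neutral amino acid transporters and enzymes of glutathione synthesis, 9 of 14 could be tested. With GDC-0449, 3 fell and none rose, beside 9.6% lower and 8.64% higher of all tested genes. With JQ1, 3 fell and 2 rose, beside 30% lower and 28.4% higher of all tested genes. Slc7a11, whose limits are given below, is in both counts of falls. Slc1a4, a neutral amino acid transporter of the Slc1a1 family, fell by 0.97 with GDC-0449 (SE 0.10, limma adjusted p = 0.000735) and changed by 0.05 with JQ1 (adjusted p = 0.675). Slc1a5, the glutamine transporter ASCT2, was detected on 1 of 2 GDC-0449 arrays and fell by 0.77 with GDC-0449 (SE 0.14, limma adjusted p = 0.00813), and this did not hold when DMSO array 1 was left out (-0.65, adjusted p = 0.0596). With JQ1 Slc1a5 rose by 0.69 (SE 0.14, limma adjusted p = 0.00254), which did not pass with median scaling (0.33, adjusted p = 0.0772). The brightest probe of the cystine transporter Slc7a11 was lower with both compounds, but it was detected on no GDC-0449 or JQ1 array. It passed the filter only through the 2 DMSO arrays, where it is high, so its falls are given as a description without a test. They were at least 2.76-fold with GDC-0449 (mean 5.01, against 6.69 with DMSO) and at least 2.37-fold with JQ1 (mean 4.54). These bounds give no order between the compounds. Another probe stood for the gene when a DMSO array was left out. The change was then -0.29 with GDC-0449 without DMSO array 1, and -0.02 with GDC-0449 and -0.22 with JQ1 without DMSO array 2. The glial glutamate transporters Slc1a2 and Slc1a3 fell with JQ1, with changes of -0.66 and -0.86 (limma adjusted p = 0.00096 and 7.58e-05); these 2 are also in the astrocyte marker list above.

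Partners of the cortical scaffold and of synaptopodin were counted in the same way. Of all tested genes, 18.2% were called with GDC-0449 and 58.3% with JQ1, and the counts here are to be read against those shares. Of 17 genes of the cortical microtubule and focal adhesion complex, 10 could be tested. By limma none passed with GDC-0449, and none had an unadjusted p under 0.05, while with JQ1 3 rose and 5 fell. Vcl, which encodes vinculin, rose by 1.00 (SE 0.11, limma adjusted p = 7.94e-05), and Ppfibp1, which encodes liprin beta 1 and was detected on 1 of 2 JQ1 arrays, fell by 1.16 (SE 0.20, limma adjusted p = 0.00134). Of 16 synaptopodin partners and actin-bundling genes, 10 could be tested. By limma none passed with GDC-0449, with 2 at an unadjusted p under 0.05, and with JQ1 5 rose and 1 fell. The actin crosslinker Actn1 rose by 1.08 (SE 0.11, limma adjusted p = 5.17e-05), and Myl9, a myosin light chain, fell by 1.48 (SE 0.10, limma adjusted p = 7.90e-06). Close relatives of Kank1, Phldb1 and Synpo were mostly not measurable: Kank2 was the only one tested, detected on 1 array of each group, with changes of -0.10 with GDC-0449 and 0.16 with JQ1, and neither passed the test.

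The nearest 2 tested genes on each side of each of the 6 make up 23 distinct genes. With GDC-0449, 8 of them fell and 2 rose, beside 9.6% lower and 8.64% higher of all tested genes, and their median change was -0.13. Of the 8 falls, Acot7 lost its call under 9 of 21 alternatives and Espn under 9 of 20. Prf1 lost it under 4 and Pum3 under 1. Espn was detected on no GDC-0449 array. Icmt, Ddx6, Vldlr and Adamts19 kept their calls under every alternative. The largest falls were next to Gpr153 and Phldb1. Icmt, a protein carboxyl methyltransferase beside Gpr153, fell by 1.26 with GDC-0449 (SE 0.10, limma adjusted p = 0.000237), and Ddx6, an RNA helicase beside Phldb1, fell by 1.25 (SE 0.10, limma adjusted p = 0.000237). With JQ1 Icmt changed by 0.22 (adjusted p = 0.0815) and Ddx6 by 0.04 (adjusted p = 0.722). Vldlr, a lipoprotein receptor between Kank1 and Slc1a1, fell by 0.73 with GDC-0449 (SE 0.11, limma adjusted p = 0.00511) and changed by -0.71 with JQ1 (SE 0.11, limma adjusted p = 0.000864). The 2 that rose with GDC-0449 were Bcl9l and Kmt2a, both near Phldb1, by 0.53 and 0.37 (limma adjusted p = 0.00824 and 0.0327). The Kmt2a call was lost with median scaling (0.05, adjusted p = 0.791), with the mean of its probes (0.26, adjusted p = 0.081), when dim probes were kept in (adjusted p = 0.0549) and whenever a GDC-0449 or DMSO array was left out. The Bcl9l call was lost with median scaling (0.30, adjusted p = 0.101), and without GDC-0449 array 1 when the probes were kept (0.48, adjusted p = 0.0508). The number of neighbours called was 6 without GDC-0449 array 1 and 6 without DMSO array 1. With JQ1, 7 fell and 7 rose, beside 30% lower and 28.4% higher of all tested genes.

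Promoter sequence was read for 5 of the 6 genes, in 6 windows of 300 bases from 250 before to 50 after a RefSeq start site (GRCm38.p6). Each was searched on both strands for the GLI consensus GACCACCCA and for its core CCACCC, which lies inside that consensus. No window held the consensus, which 0.253% of 32851 windows of the same length hold. The core was in 2 windows, those of Phldb1 and one of 2 for Gpr153, and in 31.5% of all windows. The 3 windows below are the 2 with the core, in capitals (GGGTGG is the core read on the opposite strand), and that of Tbata, the gene with the largest fall, which has neither. The Tbata window is on the plus strand at chr10:61171714-61172013, the Gpr153 window on the plus strand at chr4:152274112-152274411, and the Phldb1 window on the minus strand at chr9:44735149-44735448.
Tbata: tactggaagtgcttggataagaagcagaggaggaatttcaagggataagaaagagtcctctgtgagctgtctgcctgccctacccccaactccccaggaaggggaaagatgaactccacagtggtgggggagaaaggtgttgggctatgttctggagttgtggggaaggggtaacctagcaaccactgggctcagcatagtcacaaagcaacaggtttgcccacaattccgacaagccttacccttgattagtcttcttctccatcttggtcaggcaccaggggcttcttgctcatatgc
Gpr153: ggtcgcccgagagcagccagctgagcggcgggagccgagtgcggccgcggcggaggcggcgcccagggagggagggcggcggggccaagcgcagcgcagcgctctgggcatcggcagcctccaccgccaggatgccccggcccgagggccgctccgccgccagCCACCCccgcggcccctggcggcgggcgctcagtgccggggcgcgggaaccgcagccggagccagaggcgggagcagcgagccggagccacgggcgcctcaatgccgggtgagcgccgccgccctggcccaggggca
Phldb1: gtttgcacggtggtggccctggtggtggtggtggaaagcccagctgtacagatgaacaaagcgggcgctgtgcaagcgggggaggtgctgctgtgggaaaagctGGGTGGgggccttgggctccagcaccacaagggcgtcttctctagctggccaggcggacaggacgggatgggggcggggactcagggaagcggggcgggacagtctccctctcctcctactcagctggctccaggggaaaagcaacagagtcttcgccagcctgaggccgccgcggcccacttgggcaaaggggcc
The Tbata window is 51.7% G and C with 1 CpG, beside medians of 52.7% and 7 CpGs over all windows. The Gpr153 window is 81.3% G and C with 42 CpGs, and the Phldb1 window 66.3% with 14. A match is a description of these letters, and no binding was measured.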

How the data were processed

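RNA of 6 samples was measured on Illumina mouse bead arrays. Per the file headers, the authors deposited for every probe and array an average bead intensity, linear and not normalized, and a detection p-value. Their tool was GenomeStudio 1.9.0, per the submitters' processing notes. The authors' deposited value table of 30847 genes follows the intensities in rank (Spearman 0.987 to 0.989), with array medians of 8.15 and 28.3% of values below 0. Its normalization is not given in the sources used here, and it served as an alternative.

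In R 4.3.3, limma 3.58.1 (function neqc) corrected the background and quantile normalized the arrays, with an offset of 16 that pulls changes of dim probes towards 0. A probe was tested where 2 or more of the 6 arrays had a detection p below 0.01, and the brightest such probe stood for its gene. Symbols were updated with the RefSeq gene table of GRCm38.p6 (6111 probes). A limma model (lmFit, eBayes) was fitted to all 6 arrays, with two-sided p-values adjusted by Benjamini-Hochberg within a comparison over 12052 genes and a threshold of 0.05. With 2 arrays a group, their number limits the precision. The fit was also run on simulated data with independent noise, which cannot vouch for calls in these data, where replicates may be technical.

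The 6 genes and all lists were chosen with earlier results of these data known. Named genes are the 6, non-members that fell as far with GDC-0449 and the next 3, the 3 nearest patterns per gene, the chromosome neighbours and the tested genes of the lists; a few of these are left out of the text but remain in every count. Alternatives changed the background correction, scaling, offset, filter, probe choice, samples and replicate block. Leaving out arrays with the probes kept, and fitting every probe alone, were added after seeing the data.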

Additional observations from a re-analysis of the deposited data

How the results depend on the processing

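Changes of the 6 genes with GDC-0449 stayed below 0 under every alternative that gave a value, from -3.12 to -2.14 for Tbata, -2.44 to -1.41 for Slc1a1, -2.40 to -1.83 for Synpo, -2.05 to -1.27 for Kank1, -2.03 to -1.54 for Gpr153 and -1.96 to -1.40 for Phldb1. Requiring detection on all 6 arrays drops Slc1a1. The number of genes called with GDC-0449 was 2198, but 3588 with median scaling, 1374 with no filter on dim probes, and 744 to 2081 when an array was left out. With the probes kept it was 985 without GDC-0449 array 1, 1108 without GDC-0449 array 2, 743 without DMSO array 1 and 1026 without DMSO array 2. With GDC-0449 the cortical list had 1 call with median scaling in place of 0. The synaptopodin list had 2 calls without background correction, 2 with an offset of 50, and 1 each with median scaling, detection on all 6 arrays and the mean of the tested probes, in place of 0. The transporter list had 5 calls without background correction, with median scaling and with an offset of 50, in place of 3, and 1 to 4 when an array was left out. The relatives had 1 to 3 calls and the chromosome neighbours 5 to 10 when an array was left out, in place of 2 and 10. With JQ1 the transporter list had 3 calls with detection on all 6 arrays, in place of 5. Between JQ1 and GDC-0449, 3 to 5 of the 6 genes were called when an array was left out. Slc1a1 with JQ1 was -0.42 (limma adjusted p = 0.00874) with median scaling and ranged from -0.154 to 0.051 when an array was left out, the highest without DMSO array 2 (adjusted p = 0.728; 0.73 with the probes kept). With median scaling, JQ1 changes turned to -0.064 for Igf2 and -0.001 for Rpl27a-ps1, a neighbour of Tbata (0.26 before). The difference of Tbata between JQ1 and GDC-0449 was -0.295 (limma adjusted p = 0.0878) with the mean of its probes, and that of Phldb1 was 0.173 to 0.25 where leaving out an array made its other probe the brightest. Differences between replicates 1 and 2 were hardly correlated between groups (0.081, -0.016 and 0.007 over 12052 genes). With only that difference in each group, this cannot show whether samples were paired. With the replicate block 17.2% of genes were called with GDC-0449, 58.3% with JQ1 and 54.5% between them, and no call on the 6 genes changed. The causes of these shifts were not tested. Signal over background limits Slc1a1 and Kank1 with GDC-0449.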
